A study of Rattus norvegicus with 9 samples.

Results

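The cell cycle and proliferation genes of rat liver were read on 9 Affymetrix rat genome-wide arrays, 1 array per rat. The set was a list of 43 genes, 9 that act in G1 phase or at entry into S phase (G1/S), 10 of DNA replication and 24 of mitosis. A gene was taken as measured where a probe set carried its symbol alone, and 41 of the 43 were, out of 14377 genes named in this way. Tpx2 had no probe set under its symbol and Rrm2 only a probe set that names several genes, so neither was used. The 3 groups of 3 male Sprague-Dawley rats were vehicle (replicates 3, 4 and 5), carbon tetrachloride (CCl4, replicates 1, 2 and 3) and CCl4 with rottlerin (CCl4+Rot, replicates 4, 5 and 6). CCl4, a toxicant that injures hepatocytes and scars the liver, was injected intraperitoneally in olive oil 2 times a week for 8 weeks. Rottlerin, a plant polyphenol that opens large-conductance calcium-activated potassium channels, was injected at 2.5 mg/kg in rats that also received CCl4, beginning 2 weeks after the first CCl4 dose. All CCl4+Rot rats therefore received CCl4 too, no group received rottlerin alone, and the composition of the vehicle is not given in the sources used here.

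Hepatocytes of an adult liver rest outside the cycle and re-enter it after toxic injury or loss of tissue, while stellate, bile duct, immune and endothelial cells can also divide during scarring. D-type cyclins and Myc act early in G1, cyclin E and E2F factors at the border to S phase, the minichromosome maintenance (MCM) helicase and nucleotide synthesis during replication, and Cdk1 with cyclins A and B at entry into mitosis. Transcripts of mitotic genes are known to accumulate in G2 and M phase through promoters that carry a cell cycle genes homology region (CHR) and CCAAT boxes, whereas many replication genes carry E2F sites.

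Each value below is a log2 signal as deposited, on arrays scaled to the same trimmed mean, and the text gives differences between groups on this log2 scale unless a fold is stated. Signals of different probe sets are not compared with each other. A probe set was called present, marginal or absent on each array. The arrays called 15550 to 16849 probe sets present, except CCl4 replicate 3 with 12714. Where the other 8 arrays gave no detection, the median log2 signal was 5.72 on CCl4 replicate 3 and 4.09 to 4.59 elsewhere, whereas probe sets present on all 9 had medians from 9.51 to 9.58 on every array, 9.53 on CCl4 replicate 3. Faint probe sets therefore read higher on that array, and results are given with and without it. All 9 measured hepatocyte markers were called present on every array.

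Of the 41 measured members, 14 were called present on all 9 arrays (4 G1/S, 5 replication and 5 mitosis), 21 on 1 to 8 arrays and 6 on none. The 6 were E2f1 among the G1/S genes and Bub1b, Plk1, Ttk, Mad2l1 and Foxm1 among the mitosis genes, and no fold is given for them. Among all genes, 49.1% were present on every array and 25.4% on none. The vehicle arrays called 21, 17 and 18 members present, the CCl4 arrays 25, 32 and 23, and the CCl4+Rot arrays 22, 29 and 33. The lowest of the CCl4 counts was from CCl4 replicate 3.

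Promoter letters are shown because mitosis and replication genes had unlike median differences in these livers, and the classes also differ in the elements before their start. RefSeq promoters (build GRCr8, 250 bases before to 50 after the annotated start) were matched by symbol to 31 members, 4 G1/S, 8 replication and 19 mitosis. The letters searched on both strands were TTTGAA for CHR, CCAAT for the CCAAT box, and, for E2F, any of 4 forms, namely TTCCCGC as the first form, TTCGCGC as another, TTGCCGC as the next and TTGGCGC as the last. In each run below the 150 bases before the start are printed 5′ to 3′ along the gene, with every match in capitals. A match on the reverse strand appears as the reverse complement, such as ATTGG for a CCAAT box. Adjacent or overlapping matches form 1 longer run of capitals, as with CHR and CCAAT in Mki67, and a match that crosses the start is shown only in part, as at the end of Mcm6.

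Mki67, chr1:199952594-199952743, minus strand: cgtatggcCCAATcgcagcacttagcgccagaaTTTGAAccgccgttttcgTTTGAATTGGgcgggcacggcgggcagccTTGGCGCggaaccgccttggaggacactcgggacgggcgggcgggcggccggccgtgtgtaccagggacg
Cdk1, chr20:19265143-19265292, plus strand: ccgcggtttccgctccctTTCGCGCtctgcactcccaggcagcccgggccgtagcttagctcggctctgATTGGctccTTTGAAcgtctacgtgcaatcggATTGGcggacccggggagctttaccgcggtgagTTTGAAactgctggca
Prc1, chr1:143659331-143659480, plus strand: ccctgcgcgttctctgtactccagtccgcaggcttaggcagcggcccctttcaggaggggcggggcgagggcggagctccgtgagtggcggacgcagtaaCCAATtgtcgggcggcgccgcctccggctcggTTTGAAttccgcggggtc
Ccnb2, chr8:79981659-79981808, minus strand: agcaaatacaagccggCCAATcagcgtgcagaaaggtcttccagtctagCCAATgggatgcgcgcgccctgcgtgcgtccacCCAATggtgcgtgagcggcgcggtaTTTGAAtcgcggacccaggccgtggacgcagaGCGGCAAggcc
Mcm6, chr13:42404353-42404502, minus strand: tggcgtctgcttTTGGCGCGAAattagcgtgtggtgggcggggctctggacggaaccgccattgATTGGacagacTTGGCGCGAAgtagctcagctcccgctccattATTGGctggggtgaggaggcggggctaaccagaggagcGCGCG
Mcm7, chr12:22163179-22163328, minus strand: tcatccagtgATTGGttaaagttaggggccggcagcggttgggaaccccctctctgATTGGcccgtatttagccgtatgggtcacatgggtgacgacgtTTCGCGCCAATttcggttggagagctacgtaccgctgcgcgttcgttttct

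The 4 mitosis genes printed each hold at least 1 CHR and at least 1 CCAAT box in this window. The Mcm6 and Mcm7 runs hold CCAAT boxes and E2F letters but no CHR. E2F letters also occur in the Mki67, Cdk1 and Ccnb2 runs, and these are the only mitosis promoters searched that hold them. All the genes printed were chosen after their matches were seen. Over the full promoters, CHR was found in 14 of 19 mitosis genes (73.7%), in 1 of 8 replication genes (12.5%), in 0 of 4 G1/S genes and in 18.3% of all 33469 promoters. CHR and CCAAT together were found in 12 of the 19 mitosis promoters (63.2%), in none of the replication and G1/S promoters, and in 7.41% of all promoters. E2F letters were found in 7 of 8 replication promoters (87.5%), all but Pcna, in 2 of 4 G1/S promoters (50%), in 3 of 19 mitosis promoters (15.8%) and in 9.52% of all promoters. CCAAT alone separated the classes less, with 78.9% of mitosis, 75.0% of replication, 50% of G1/S and 37.5% of all promoters. In members, the only CCAAT match that overlapped E2F letters was in Mcm7, where it met 2 E2F matches. The 17 CHR matches of mitosis genes began at a median of 18 bases before the start. These are matches of letters and not evidence of a bound factor. The deposited table places Mki67 on chromosome 17 and Ccnb2 on chromosome 1, whereas RefSeq places them on chromosomes 1 and 8, and the other 29 matched members had the same chromosome in both.

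**Figure D1:**
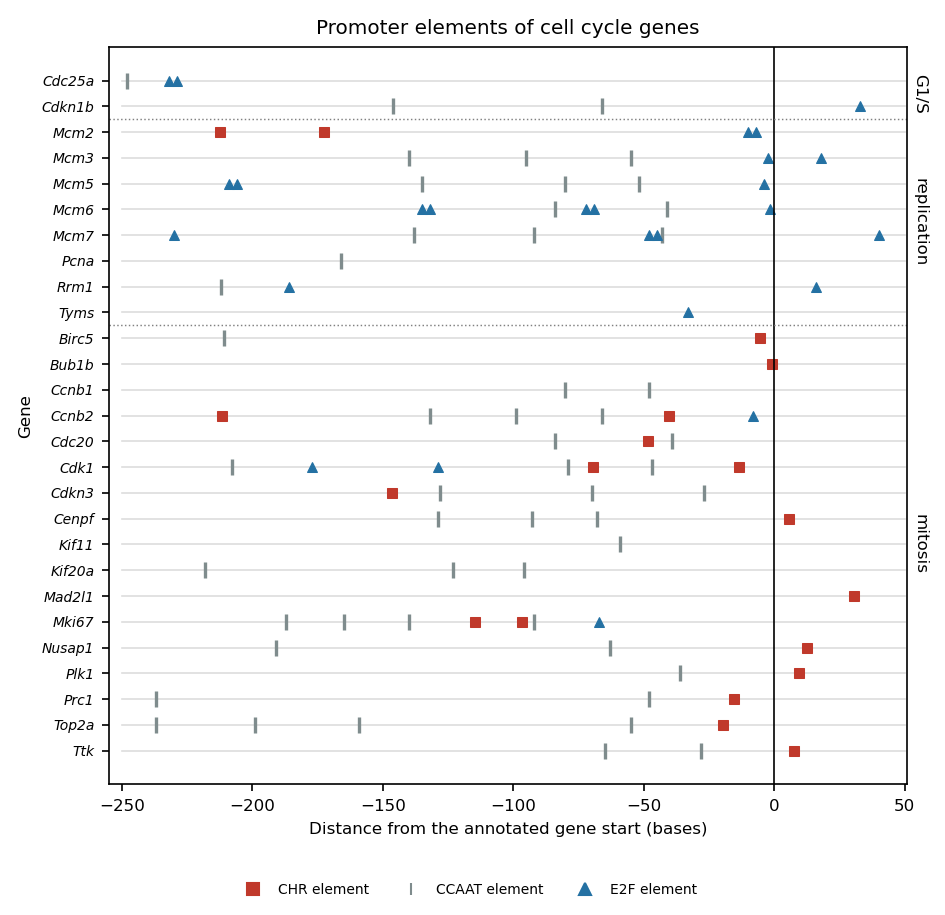
Positions of promoter elements in the members that hold at least 1 match (rows, by phase), with the x axis in bases from the annotated gene start. Squares (CHR) appear in 14 of the 19 mitosis promoters and in 1 replication promoter, and triangles (E2F) in 7 of the 8 replication promoters and 3 of the mitosis promoters.

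With CCl4, mitosis genes read higher on average than with vehicle in nearly all members measured, detected or not. The median of the replication genes lay near that of all genes. The median difference, CCl4 minus vehicle, was 1.54 over the 23 mitosis members, 0.54 over the 9 G1/S members, 0.17 over the 9 replication members and 0.13 over all 14377 genes. By direction alone, whether or not a probe set was detected, 22 of 23 mitosis members read higher, Foxm1 being the exception, and so did 6 of 9 G1/S and 9 of 9 replication members (6 of 9 after quantile normalization or without CCl4 replicate 3). No member passed the test, limma with Benjamini-Hochberg adjustment over all probe sets at an adjusted p under 0.05 and 1.5-fold, and the share of all genes called was 0%. At an unadjusted limma p under 0.05, 23 members read higher and 0 lower, against 9.49% and 4.01% of all genes. The 23 were 18 mitosis, 3 replication and 2 G1/S members. Every CCl4 rat lay above every vehicle rat in 17 members and below in 0. These were 14 of 23 mitosis, 2 of 9 G1/S (E2f1 and Cdkn1a) and 1 of 9 replication members (Mcm3), against 12.5% of all genes above and 8.53% below. Of the 23 mitosis members, 11 were detected in both groups, 6 in 1 group and 6 in neither. Kif20a and E2f1, both among the 17, were detected in neither group. An exact permutation test of 3 rats against 3 cannot give a two-sided p under 0.1, so it could pass for no gene. In whole liver, more cells of a type and more RNA per cell cannot be told apart.

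**Figure D2:**
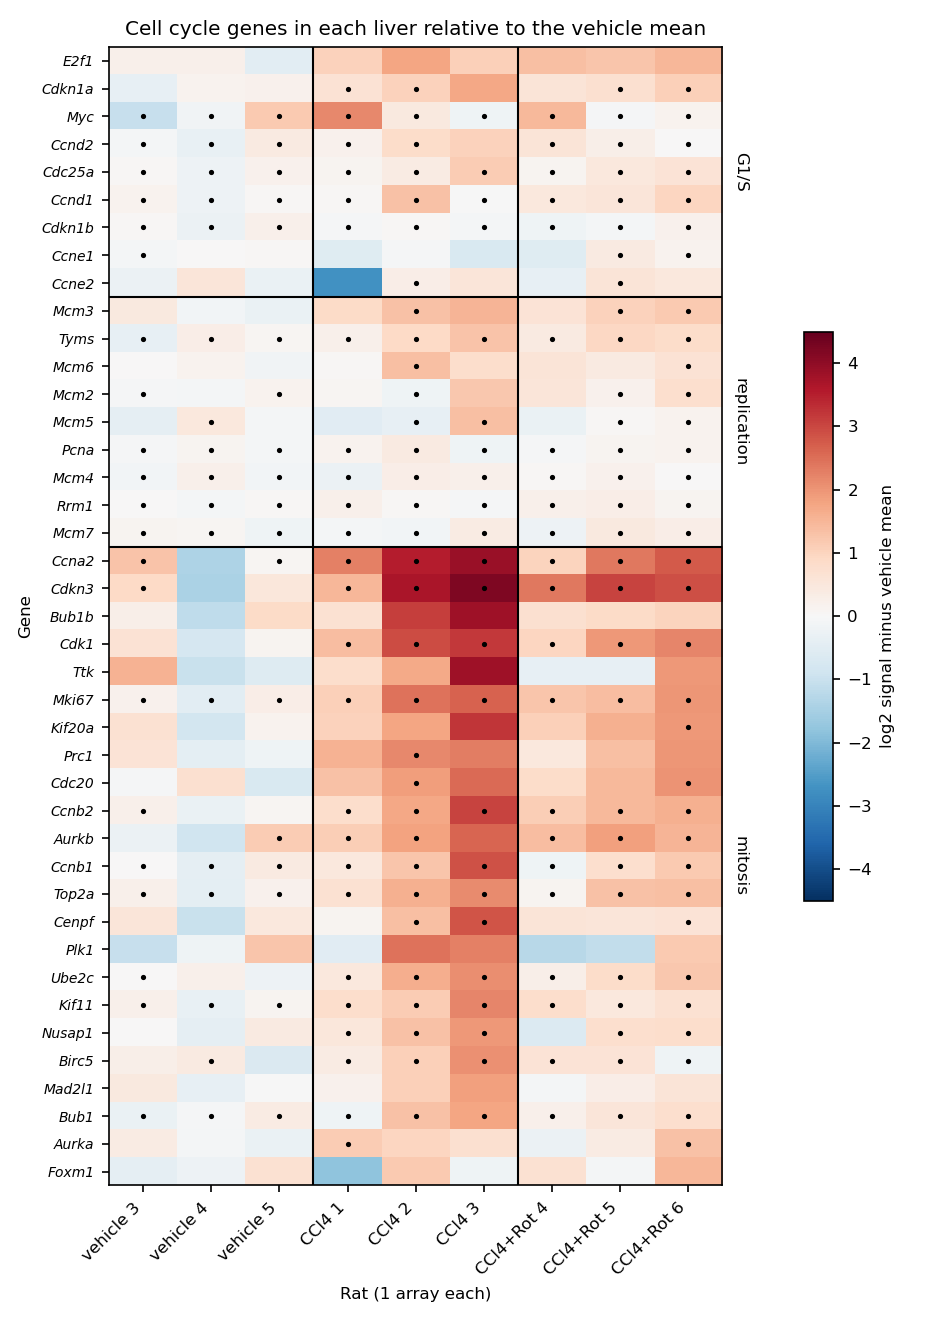
Log2 signal of each of the 41 measured members (rows, by phase and then by CCl4 minus vehicle) in each of the 9 rats (columns), minus the vehicle mean of that gene. Red is above and blue below the vehicle mean, and a dot marks a present call. The mitosis block is reddest in CCl4 replicates 2 and 3, where its mean was 1.88 and 2.51 above the vehicle mean.

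The mitotic kinase and its cyclins gave some of the widest gaps. Cdk1, the kinase that drives entry into mitosis, read 6.23, 4.80 and 5.68 in vehicle rats, 6.96, 8.51 and 8.75 in CCl4 rats and 6.53, 7.53 and 7.77 in CCl4+Rot rats. It was called present in 0 of 3 vehicle and in 3 of 3 CCl4 livers, with no overlap, and CCl4 was at least 5.66-fold above vehicle (limma adjusted p = 0.231). Such a bound takes, for each undetected array, its own signal or the faintest signal detected there, whichever is higher. For the members given here it equalled the fold between the group means, and it does not cover the spread of the rats. The Cdk1 difference was 2.12 at the lowest with 1 array left out. Where 1 group was detected on only some arrays and the other on none, the fold between group means is given instead. Ccna2, which encodes cyclin A2, read 6.01, 3.33 and 4.79 in vehicle, 6.96, 8.24 and 8.58 in CCl4 and 5.70, 7.09 and 7.48 in CCl4+Rot livers. The vehicle rats differed among themselves by more than for Cdk1, Ccnb1, Ccnb2 or Cdkn3, yet all lay below the CCl4 rats, a difference of 3.21 ± 0.79 (standard error, adjusted p = 0.237). Ccnb2, one of the B-type cyclins, read 6.90, 6.37 and 6.77, then 7.48, 8.41 and 9.72, then 7.79, 8.14 and 8.29 in the same order of groups. Both treated groups were above all vehicle rats, and CCl4 minus vehicle was 1.86 ± 0.52 (adjusted p = 0.258), or 1.26 without CCl4 replicate 3. Ccnb1, the other B-type cyclin, was present on all 9 arrays and read 6.57, 6.15 and 6.97, then 7.04, 7.82 and 9.44, then 6.36, 7.31 and 7.73. The lowest CCl4 rat lay only just above the highest vehicle rat, and the difference of 1.54 ± 0.63 became 0.87 without CCl4 replicate 3. Cdkn3, a phosphatase that acts on cyclin-dependent kinases, read 6.91, 4.57 and 6.51, then 7.50, 9.68 and 10.20, then 8.39, 9.04 and 8.90. It was present in 1 vehicle liver and in every other one, and its difference of 3.13 ± 0.82 (adjusted p = 0.249) was, after Ccna2, the widest of the members.

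Markers of dividing cells and of chromosome structure were measured more often. Mki67, which encodes the Ki-67 protein that coats mitotic chromosomes, was called present in all 9 livers. Its signals were 6.02, 5.36 and 6.14 in vehicle, 6.90, 8.27 and 8.50 in CCl4 and 7.10, 7.24 and 7.82 in CCl4+Rot rats. Vehicle signals overlapped with those of neither treated group, and CCl4 was 4.15-fold above vehicle (2.05 ± 0.45, adjusted p = 0.218). Top2a, the topoisomerase that untangles sister chromatids, read 6.73, 6.06 and 6.71, then 7.18, 8.11 and 8.62, then 6.62, 7.83 and 7.86. CCl4 rats were above all vehicle rats by this gene too (1.47 ± 0.47), and CCl4+Rot replicate 4 lay inside the vehicle range. Its other probe set gave the same direction.

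Spindle motors and midzone proteins read the same way. Kif11, the motor that separates spindle poles, was present on all arrays at 6.42, 5.84 and 6.32 in vehicle, 6.98, 7.34 and 8.38 in CCl4 and 6.99, 6.67 and 6.88 in CCl4+Rot livers. All treated rats were above all vehicle rats, with CCl4 minus vehicle at 1.37 ± 0.36 (adjusted p = 0.251). Prc1, which bundles microtubules of the central spindle, read 6.80, 5.75 and 6.00, then 7.73, 8.33 and 8.50, then 6.66, 7.55 and 8.18. It was called present only in CCl4 replicate 2, and the CCl4 mean stood 4.01-fold above vehicle (adjusted p = 0.222) with 1 detected array of 3. Nusap1, a microtubule-binding spindle protein, was present in 0 of 3 vehicle and 3 of 3 CCl4 livers, and it read 6.91, 6.47 and 7.30, then 7.39, 8.20 and 8.83, then 6.28, 7.66 and 7.68. Its CCl4 and vehicle ranges were almost adjacent, for a bound of at least 2.37-fold (adjusted p = 0.38). Kif20a, a cytokinesis motor, was called present in CCl4+Rot replicate 6 alone, and in no liver of either other group, so no fold is given between those.

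Among kinetochore, checkpoint and chromosomal passenger genes, Aurkb, the kinase of the passenger complex, read 5.27, 4.64 and 6.68 in vehicle, 6.65, 7.34 and 8.16 in CCl4 and 6.92, 7.38 and 7.06 in CCl4+Rot rats. CCl4 replicate 1 lay just inside the vehicle range, and CCl4 minus vehicle was 1.85 ± 0.57 (adjusted p = 0.287). Birc5, or survivin, a partner of Aurkb, read 7.33, 7.47 and 6.43, then 7.46, 8.16 and 9.15, then 7.71, 7.68 and 6.88. Its CCl4 and vehicle ranges overlapped by a narrow margin (1.18 ± 0.49, adjusted p = 0.39). Bub1, a kinase of the spindle checkpoint, was present on all arrays at 6.11, 6.36 and 6.78, then 6.22, 7.75 and 8.18, then 6.66, 6.97 and 7.17. CCl4 replicate 1 lay within the vehicle range of this gene, and the difference was 0.97 ± 0.49 (adjusted p = 0.46), or 0.57 without CCl4 replicate 3. Of the other checkpoint genes, Bub1b, Ttk and Mad2l1 were read by probe sets present nowhere, although for Ttk and Mad2l1 dimmer probe sets were called present on some arrays and also read higher with CCl4. Cenpf, a kinetochore protein, was present in 0 vehicle and 2 CCl4 livers (2.72-fold, overlapping, adjusted p = 0.443). Aurka, the spindle pole kinase, was present in 0 vehicle livers and 1 CCl4 liver (1.93-fold, not overlapping, adjusted p = 0.398).

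Genes of the anaphase-promoting complex completed the class. Ube2c, the ubiquitin-conjugating enzyme that works with this complex, read 6.55, 6.78 and 6.32 in vehicle, 7.01, 8.20 and 8.64 in CCl4 and 6.81, 7.38 and 7.78 in CCl4+Rot livers. Both treated groups lay above all vehicle rats, with CCl4 minus vehicle at 1.40 ± 0.44 (adjusted p = 0.298). Cdc20, an activator of the complex, was present in 0 vehicle livers and 1 CCl4 liver (3.77-fold, not overlapping, adjusted p = 0.241). Its 4 other probe sets, present nowhere, read higher with all arrays, and 3 of the 4 read lower without CCl4 replicate 3. Foxm1, the factor that switches on many G2 and M genes, read from 2.97 to 6.29 and was called absent everywhere.

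**Figure D3:**
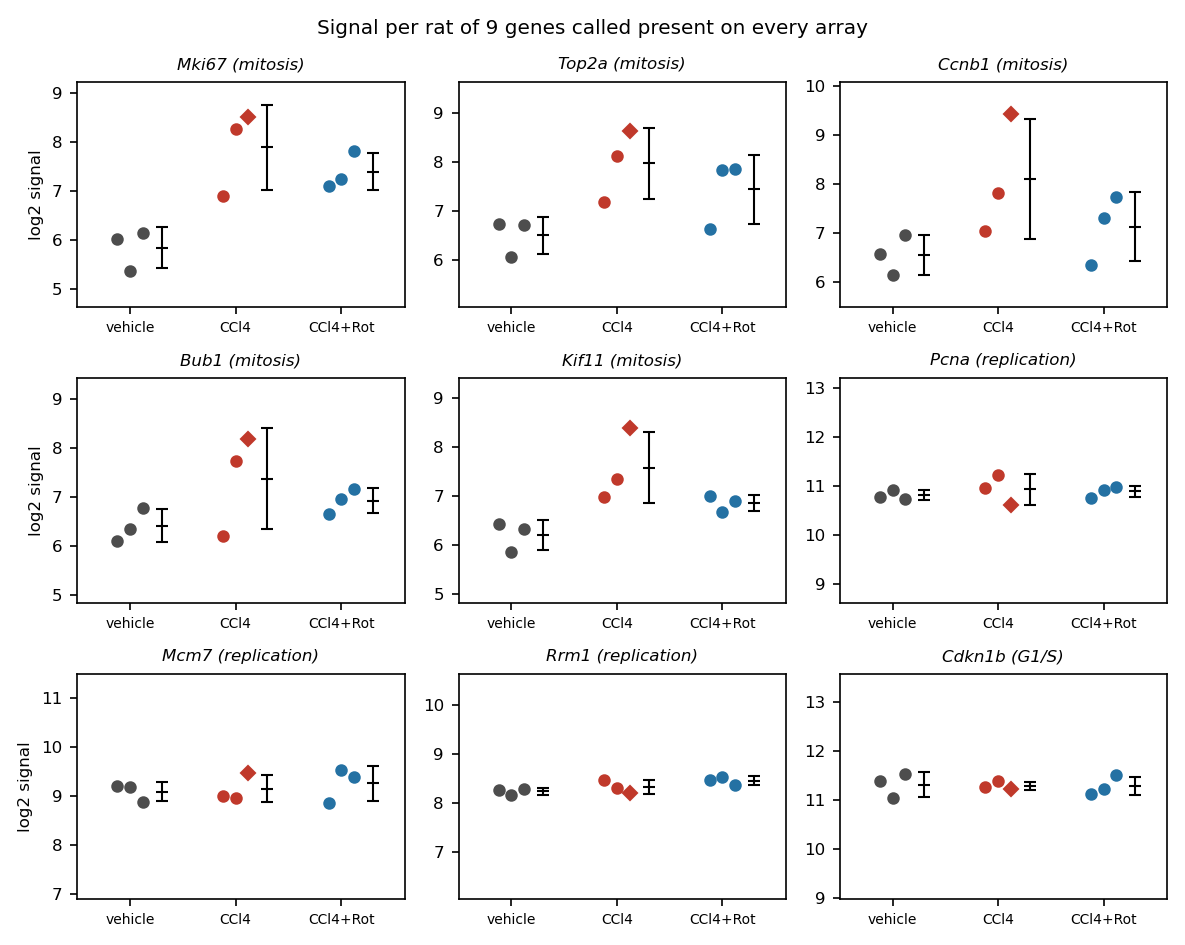
Log2 signal (y axis, each panel spanning the same width) of 9 members called present on every array, by group. Each point is 1 rat, the diamond is CCl4 replicate 3, and the bar gives the mean and SD of the 3 rats. The 5 mitosis genes are higher in CCl4 than in vehicle rats on average, by 0.97 to 2.05, and Pcna, Mcm7, Rrm1 and Cdkn1b differ by 0.13 or less. Of the 5 other members present on every array, which are not plotted, Mcm4 differs by 0.10, Ccnd1 by 0.46, Cdc25a by 0.54, and Tyms and Myc by 0.80 each.

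The CCl4 rats were not alike. Averaged over the 23 mitosis members, the signal stood 0.68, 1.88 and 2.51 above the vehicle mean in CCl4 replicates 1, 2 and 3, and 0.28, -0.48 and 0.20 from it in the vehicle rats themselves. CCl4 replicate 1 was the lowest of its group for 22 of the 23 members and CCl4 replicate 3 the highest for 20. The 5 mitosis members present on all arrays gave 0.56, 1.56 and 2.32 in the same rats. Without CCl4 replicate 3, the median difference was 1.15 over the mitosis members and 0.03 over all genes, and the non-overlapping mitosis members again numbered 14. Over all classes they were 19 higher and 0 lower, against 17.9% and 15.1% of all genes. Fewer members, 14 instead of 23, then read higher at an unadjusted limma p under 0.05 and 0 lower, against 7.80% and 4.64% of all genes. Over the 14 members present on every array, the median was 0.67 with all arrays and 0.57 without CCl4 replicate 3, beside -0.01 and 0 over all 7058 such genes. In 4 of them, all of mitosis, every CCl4 rat was above every vehicle rat, and in 0 below, against 12.1% and 14.2% of such genes.

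Another estimate of the spread, limma with a trend on signal and robust to outlying genes, called 4 members, beside 1.62% of all genes, all of mitosis and all higher with CCl4. They were Mki67 (adjusted p = 0.0426), Cdk1 (0.0425), Ccna2 (0.0461) and Prc1 (0.0404). The methods' t-test, unadjusted and at 1.5-fold, called 13 members against 6.3% of all genes (2.18% for CCl4+Rot minus CCl4 and 8.05% for CCl4+Rot minus vehicle), and 0 after adjustment. The robust calls lay close to the threshold and changed when single arrays were left out. In robust fits with 1 array left out, 12 members were called without CCl4 replicate 1 (beside 3.8% of all genes) and 2 without vehicle replicate 3, 1 each without CCl4+Rot replicate 4 or 6, and 0 without vehicle replicate 4 or 5, CCl4 replicate 2 or 3, or CCl4+Rot replicate 5. Without CCl4 replicate 3 the robust adjusted p was 0.0877 for Mki67, 0.101 for Cdk1, 0.113 for Ccna2 and 0.0886 for Prc1, while 1.42% of all genes were called.

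**Figure D4:**
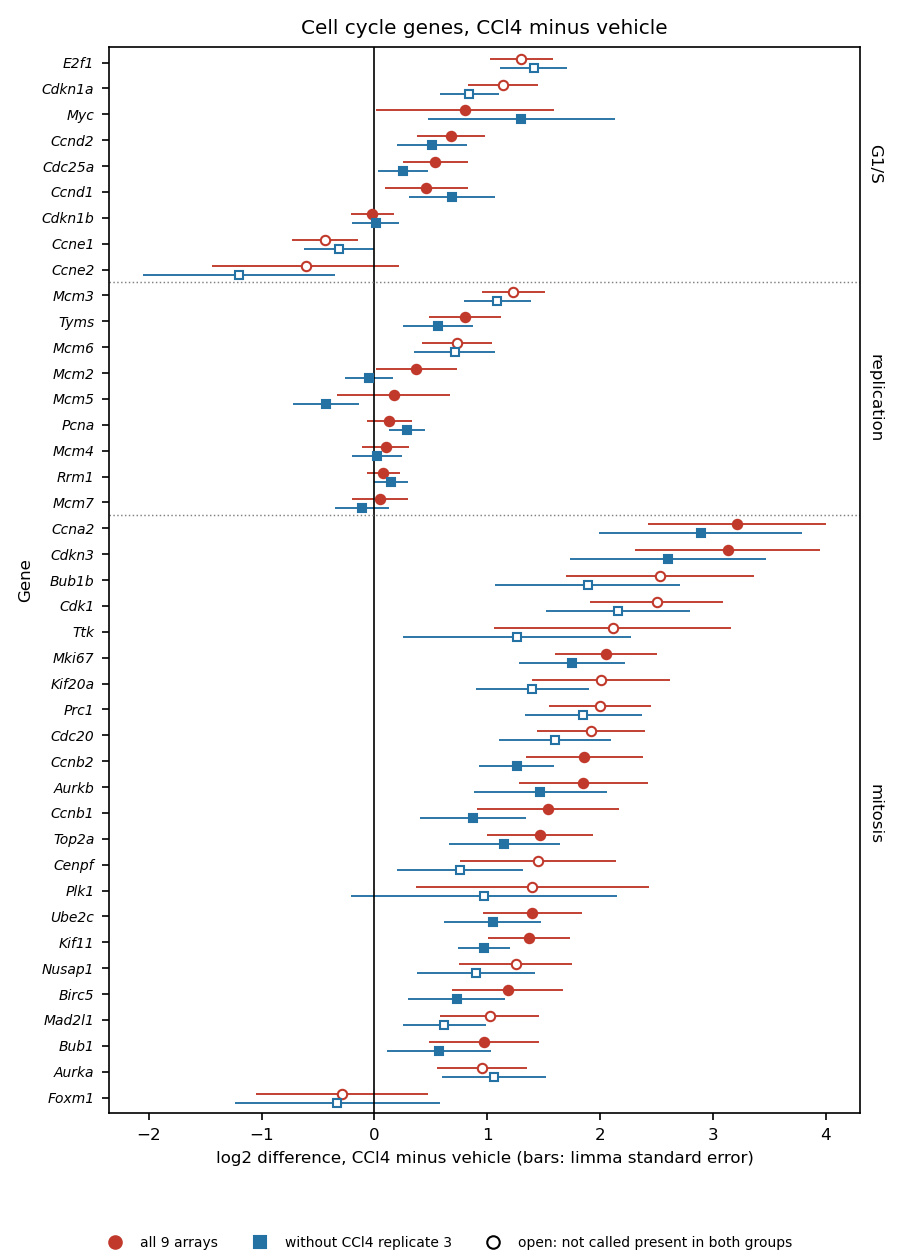
CCl4 minus vehicle (x axis, log2 difference with limma standard error) for the 41 measured members, by phase, with all arrays (circles) and without CCl4 replicate 3 (squares). Open symbols mark genes not called present in both groups. Mitosis members run from -0.29 (Foxm1) to 3.21 (Ccna2), and replication members from 0.05 to 1.23.

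Among DNA replication genes, Pcna, the sliding clamp of the replicative polymerases, read 10.77, 10.92 and 10.73 in vehicle, 10.97, 11.22 and 10.61 in CCl4 and 10.76, 10.92 and 10.98 in CCl4+Rot livers. The groups overlapped, with CCl4 minus vehicle at 0.13 ± 0.20 (adjusted p = 0.811). Rrm1, the large subunit of ribonucleotide reductase, read 8.26, 8.15 and 8.28, then 8.47, 8.29 and 8.19, then 8.47, 8.52 and 8.35, a CCl4 difference of 0.08 ± 0.15 that turned to -0.15 after quantile normalization. The MCM helicase subunits did not read as a block. Mcm4 and Mcm7, present on all arrays, differed by 0.10 and 0.05. Mcm3 read 6.57, 6.01 and 5.85, then 7.0, 7.47 and 7.66, then 6.77, 7.16 and 7.32, and both treated groups lay above all vehicle rats. It was detected in 0 vehicle livers and in 1 CCl4 liver, and the group means differed 2.35-fold (adjusted p = 0.222). Mcm2 read 7.21, 7.20 and 7.43, then 7.36, 7.10 and 8.49, then 7.81, 7.46 and 8.02. Its CCl4 difference of 0.37 rested on CCl4 replicate 3 and was -0.05 without it. The same held for Mcm5, at 0.17 with all arrays and -0.43 without CCl4 replicate 3. Mcm6 was detected in 1 CCl4 liver and no vehicle liver (1.66-fold, overlapping, adjusted p = 0.404). Tyms, which makes thymidylate, was present on all arrays at 5.94, 6.60 and 6.40, then 6.54, 7.21 and 7.60, then 6.72, 7.24 and 7.14. CCl4 replicate 1 lay inside the vehicle range, and the difference was 0.80 ± 0.32 (adjusted p = 0.374).

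G1/S genes gave mixed values. Among the inhibitors, Cdkn1a, the p53 target p21, read 7.71, 8.23 and 8.29 in vehicle, 8.72, 9.11 and 9.81 in CCl4 and 8.67, 8.79 and 9.14 in CCl4+Rot livers. All treated rats were above all vehicle rats. With 0 vehicle and 2 CCl4 livers called present, the CCl4 mean was 2.20-fold higher (adjusted p = 0.255). Cdkn1b, or p27, read 11.03 to 11.53 across the 9 livers, and its group means differed by 0.03 at most. Of the D-type cyclins, which start the G1 kinases, Ccnd1 read 10.73, 10.33 and 10.61, then 10.62, 11.89 and 10.54, then 11.04, 11.12 and 11.53. CCl4 replicate 2 alone stood above the vehicle range in its group, and CCl4 minus vehicle was 0.46 ± 0.37 (adjusted p = 0.632), or 0.02 at the lowest with 1 array left out. Ccnd2 read 8.38, 8.13 and 8.88, then 8.67, 9.28 and 9.50, then 9.04, 8.73 and 8.50, overlapping at 0.68 ± 0.30 (adjusted p = 0.41). Myc, the growth-driving transcription factor, read 7.51, 8.38 and 9.71, then 10.69, 8.97 and 8.33, then 9.99, 8.48 and 8.69. Its rats spread over more than the group means differed (0.80 ± 0.79, adjusted p = 0.693), and CCl4 replicate 1, the lowest of its group for mitosis genes, was its highest for Myc. Cdc25a, the phosphatase that activates G1 and S phase kinases, read 7.16, 6.86 and 7.28, then 7.24, 7.47 and 8.23, then 7.21, 7.58 and 7.73, overlapping at 0.54 ± 0.29 (adjusted p = 0.482). Ccne1, or cyclin E1, read 7.46, 7.58 and 7.61, then 7.01, 7.48 and 6.85, then 6.99, 7.97 and 7.72. It was called present in 1 vehicle, 0 CCl4 and 2 CCl4+Rot livers, and the vehicle mean was 1.35-fold above CCl4 (adjusted p = 0.559). Ccne2 was present in 1 CCl4 and 1 CCl4+Rot liver, and its second probe set read in the opposite direction.

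With rottlerin added to CCl4, mitosis genes read lower on average than with CCl4 alone, but within the spread of the rats. The comparison uses the same CCl4 arrays as CCl4 minus vehicle, so a high or low CCl4 array enters both. The median difference, CCl4+Rot minus CCl4, was -0.72 over the 23 mitosis members, -0.04 over replication members (0.07 after quantile normalization), -0.01 over G1/S members and -0.05 over all genes. By direction alone 22 of 23 mitosis members read lower, Foxm1 again being the exception. No member was called by limma or by its robust form, beside 0% and 0.00696% of all genes, none had an unadjusted limma p under 0.05 (2.1% of all genes higher and 3.4% lower), and none had groups that did not overlap (5.57% above and 5.6% below). A p that misses the threshold does not show equal levels, and the standard errors allow differences in both directions for most members.

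Named values show the overlap. Mki67 was -0.50 ± 0.45 (adjusted p = 0.807), and all 3 CCl4+Rot rats lay between CCl4 replicates 1 and 2. Cdk1 was -0.80 ± 0.59 (adjusted p = 0.783) and Ccna2 -1.17 ± 0.79 (adjusted p = 0.774), each with CCl4+Rot replicate 4 below and the other two inside the CCl4 range. Among mitosis members detected on at least 2 arrays of either group, Kif11 had the smallest unadjusted limma p, at -0.72 ± 0.36 (adjusted p = 0.76). Nusap1 was -0.93 ± 0.50 (adjusted p = 0.765) and Birc5 -0.83 ± 0.49 (adjusted p = 0.765). Among the cyclins with detected signals in both groups, Ccnb1 was -0.97 ± 0.63 and Ccnb2 -0.46 ± 0.52. Cdkn3 was -0.35 ± 0.82, with CCl4+Rot livers at 8.39 to 9.04 inside a CCl4 range of 7.50 to 10.20. Replication members ran from -0.29 (Mcm3) to 0.13 (Rrm1). G1/S members differed in both directions, 4 higher and 5 lower, from -0.39 (Ccnd2) to 0.84 (Ccne2). Of the others, Ccne1 was at 0.45, Myc at -0.28, Cdkn1a at -0.35 and Cdkn1b at -0.01. Ccnd1 was 0.22 ± 0.37, and 1 of its 3 probe sets read lower instead.

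Single arrays moved this difference. The median over all 41 members was -0.39, and it was -0.15 without CCl4 replicate 3, -0.20 without CCl4+Rot replicate 4 and -0.63 without CCl4 replicate 1. Without CCl4+Rot replicate 4, Cdk1 was -0.42 and Ccna2 -0.64, and without CCl4 replicate 3 they were -0.46 and -0.84. Without CCl4 replicate 3 the mitosis median was -0.30, 18 of 23 members read lower and all genes had a median of 0.01. Mki67 was then -0.20, Kif11 -0.31, Ccnb1 -0.30 and Top2a -0.21, while Ccnb2 (0.13), Cdkn3 (0.18), Aurkb (0.12) and Kif20a (0.13) turned to the other sign. Second probe sets gave 0.56 for Top2a, -0.70 for Kif11 and, detected nowhere, -0.28 for Ccnb1. With 14 members higher and 27 lower in all, only Mcm2 (0.54) and Mcm5 (0.41) then had CCl4+Rot rats above all remaining CCl4 rats, against 12.3% of all genes above and 10.4% below. Mcm2 alone had an unadjusted limma p under 0.05, against 3.42% higher and 2.43% lower of all genes. Over the 5 mitosis members present on all arrays, the median was -0.54 with all arrays and -0.21 without CCl4 replicate 3.

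**Figure D5:**
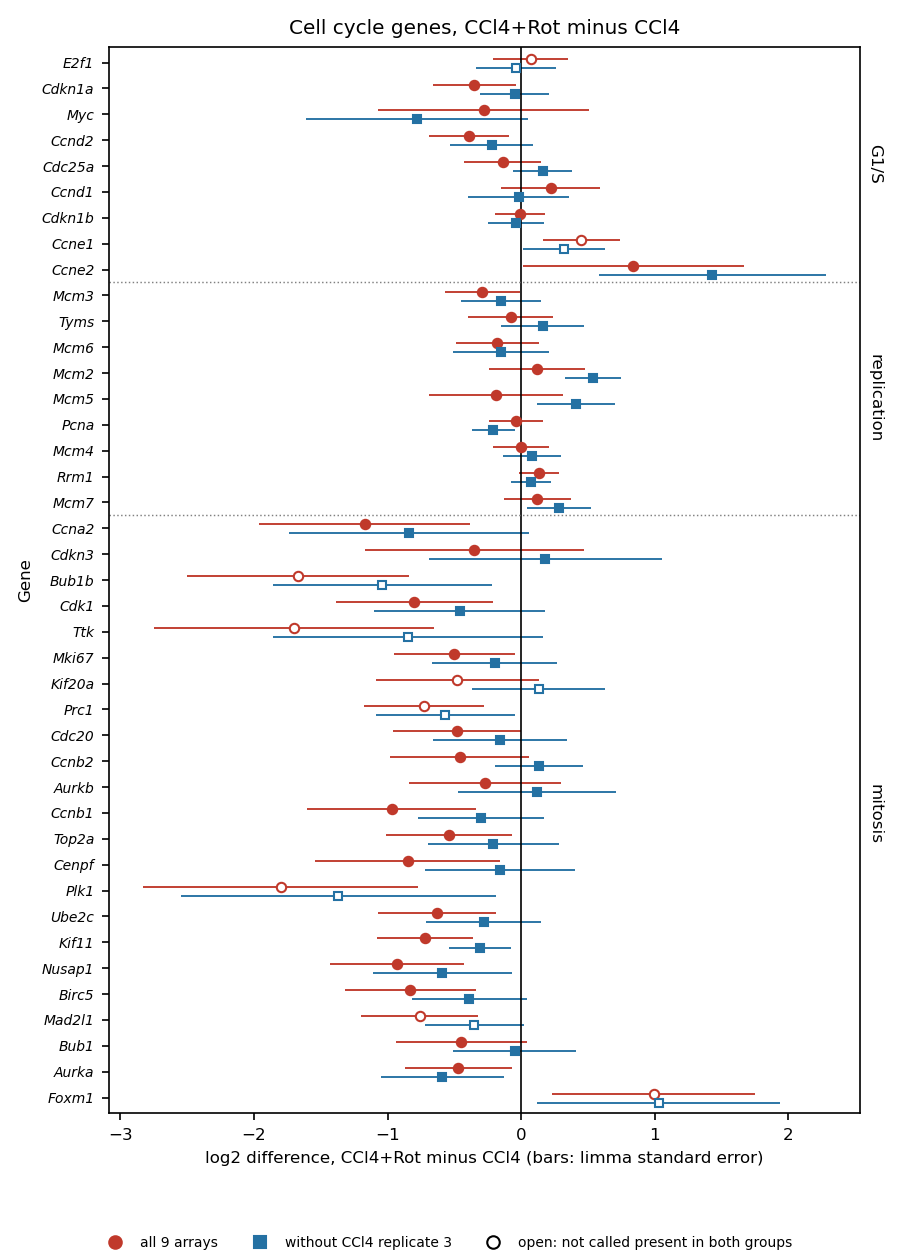
CCl4+Rot minus CCl4 (x axis, log2 difference with limma standard error) for the 41 measured members, in the same order and symbols as the CCl4 and vehicle plot. Most mitosis circles lie left of 0 (median -0.72) and the squares, without CCl4 replicate 3, lie nearer to it (median -0.30).

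CCl4+Rot livers were compared with vehicle as well, which shares its arrays with both comparisons above. The median difference was 0.77 over mitosis members, 0.41 over G1/S members, 0.22 over replication members and 0.03 over all genes. No member was called, beside 0.0209% of all genes in limma and 1.17% in its robust form, and 12 had an unadjusted limma p under 0.05, all higher, against 7.46% higher and 2.33% lower of all genes. The groups did not overlap in 18 members, all higher with CCl4+Rot (10 mitosis, 5 replication and 3 G1/S), against 15.2% of all genes above and 9.47% below. Cdkn3 differed by 2.78 ± 0.82 (adjusted p = 0.389), Mki67 by 1.55 ± 0.45 (adjusted p = 0.383), Aurkb by 1.59 ± 0.57 (adjusted p = 0.495) and Ccnb2 by 1.39 ± 0.52 (adjusted p = 0.513), none of them overlapping. In contrast, Ccna2 (2.05 ± 0.79, adjusted p = 0.541) and Top2a (0.94 ± 0.47, adjusted p = 0.696) overlapped through CCl4+Rot replicate 4. Among replication genes, Mcm2, Mcm3, Mcm6, Rrm1 and Tyms did not overlap, by differences from 0.22 (Rrm1) to 0.94 (Mcm3). Of the G1/S genes, Ccnd1 (0.67), Cdkn1a (1.73-fold) and the undetected E2f1 did not overlap. Averaged over the mitosis members, CCl4+Rot replicates 4, 5 and 6 stood 0.51, 0.97 and 1.43 above the vehicle mean, all below CCl4 replicates 2 and 3, with only CCl4+Rot replicate 4 below CCl4 replicate 1. CCl4+Rot replicate 4 was lowest of its group, and CCl4+Rot replicate 6 highest, for 19 of the 23.

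A longer list of cell cycle genes that are not members also had its highest median between CCl4 and vehicle in the mitosis class. Its 102 measured genes had medians of 0.99 (40 mitosis genes), 0.26 (37 replication genes) and 0.23 (25 G1/S genes), with 21, 6 and 3 genes in which all CCl4 rats were above all vehicle rats and 1, 3 and 1 in which they were below, where 12.5% and 8.53% of all genes did so. The replication median was -0.07 after quantile normalization and -0.01 without CCl4 replicate 3. None of the 102 was called by limma (29 higher and 2 lower at an unadjusted p under 0.05, against 9.49% and 4.01% of all genes), and 6 were by its robust form, against 1.62%. Tk1, the salvage enzyme for thymidine, was higher by 1.47 (robust adjusted p = 0.0443), Cdca3, a G2 and M phase regulator, by 2.52 (0.0491), Spc24, a kinetochore subunit, by 2.28 (0.0481) and H2afz, the histone variant H2A.Z, by 0.64 (0.0416). Rbl2, the pocket protein p130 that holds resting cells out of the cycle, stood at -0.78 (0.0363). Kif23, the last of the 6, was absent on every array (0.0396). Without CCl4 replicate 3 the robust form called 1 of the 102, and without CCl4 replicate 1 it called 12. For CCl4+Rot minus CCl4, the same classes had medians of -0.45, -0.19 and -0.07, and -0.09, -0.03 and -0.03 without CCl4 replicate 3.

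Levels of some cell type markers differed between CCl4 and vehicle livers, most often those of stellate cells and myofibroblasts. The summed linear signal of 10 stellate cell and myofibroblast markers ran from 8520 to 14100 in vehicle, 20100 to 34600 in CCl4 and 29900 to 36800 in CCl4+Rot livers. Groups did not overlap between CCl4 and vehicle in 7 of the 10, all higher with CCl4, against 12.5% of all genes above and 8.53% below. By the same count, 3 of 9 bile duct markers were higher and 1 lower, 1 of 7 macrophage and 1 of 4 B and plasma cell markers were higher, 1 of 9 hepatocyte and 2 of 8 endothelial markers were lower, and 0 T and NK cell or neutrophil markers stood apart. The 9 measured bile duct markers summed to 1200 to 1450, 3050 to 5750 and 1560 to 2890, with Krt7 and Cldn4 among those present on no array. Sums of 7 macrophage markers were 18700 to 23100, 22500 to 28300 and 28600 to 31700. The 9 T and NK cell markers gave 866 to 1050, 661 to 2020 and 1180 to 1370, with Cd3d, Cd2, Cd8a, Cd4 and Lck present nowhere, and 4 B cell and plasma cell markers gave 285 to 390, 335 to 1040 and 311 to 326. The highest T, NK, B and plasma cell sums, 2020 and 1040, were from CCl4 replicate 3. The 6 neutrophil markers gave 330 to 1260, 625 to 1140 and 1460 to 2390, with Cxcr2 and Camp present nowhere. Hepatocyte markers summed to 248000 to 278000, 190000 to 272000 and 268000 to 281000, with the 190000 in CCl4 replicate 3, and 8 endothelial markers to 11300 to 12500, 8990 to 11800 and 11400 to 12700. None of these markers was called by limma, and their part in the mitosis gene signals was not tested.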

How the data were processed

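Total liver RNA of 9 rats was hybridised to Affymetrix rat arrays, 1 per rat. The authors deposited 1 table of log2 signals and detection calls for 31099 probe sets. The labels name MAS5 and affy without versions, and every array comes to a mean signal of 500 on the linear scale once 2% are trimmed at each end. The genome build is not given in the sources used here. No further normalization was applied. The fit used limma 3.58.1 (R 4.3.3) on the 31042 probe sets left after 57 controls were dropped (a mean per group, no other term), with Benjamini-Hochberg adjustment over this whole table. Calls needed an adjusted p under 0.05 and a 1.5-fold difference, the study's own fold limit. P values set the difference between group means against the spread between these rats, which limma moderates over all probe sets. The number of arrays limits their precision.

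Each gene was represented by its brightest probe set, by mean signal, among those carrying 1 symbol. Of 58 member probe sets, 12 genes had several, and disagreements in direction are stated for Ccnd1 and Ccne2. For CCl4+Rot minus CCl4 they also held for Cdkn1a and Cdc20, and for CCl4 minus vehicle for Cdkn1b. For CCl4+Rot minus vehicle they held for Cdkn1b and Cdc20. Genes detected in no array of either group were given no fold. Those detected in only 1 group were given a bound, or the fold between group means where that group had undetected arrays. Signals in every rat are printed for members with the smallest unadjusted p per class (8 mitosis, 5 replication and 4 G1/S for CCl4 minus vehicle, 3, 2 and 2 for each rottlerin comparison) among those present on at least 2 arrays of a group, plus Mki67, Cdk1, Pcna, Ccnd1, Cdkn1a and Myc. Those of Top2a, Ccnb1, Bub1 and Prc1 were added after their values were seen. The members and lists were chosen with earlier results of these data known. The limma code was tested on simulated data. Alternatives were quantile normalization, centring, detection filters, other spread estimates, other probe set rules, a replicate block, the methods' t-test and each array left out. Robust fits with an array left out were added after seeing the data. Promoters came from RefSeq (GRCr8). Figures used Python 3.11.15 and matplotlib 3.10.9. Detection of some single cell type markers is not reported here.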

Additional observations from a re-analysis of the deposited data

How the results depend on the processing

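The median difference of the members kept its sign under every alternative run. It was 1.18 for CCl4 minus vehicle (0.87 to 1.45 with 1 array left out, 0.85 after quantile normalization, which moved the median of all genes from 0.13 to 0.01), -0.39 for CCl4+Rot minus CCl4 (-0.63 to -0.15, and -0.37) and 0.57 for CCl4+Rot minus vehicle (0.49 to 0.77, and 0.42). With genes detected in only 1 group at their bound or fold between means, the medians were 1.14, -0.35 and 0.56. Rrm1 changed sign after quantile normalization (-0.15 for CCl4 minus vehicle). In the same comparison and setting, Mcm3 went from 1.23 to 0.85, Tyms from 0.80 to 0.40 and Ccne1 from -0.44 to -0.86. Among the 21 members with signals chosen by the naming rule, leaving out 1 array turned the sign of 2 for CCl4 minus vehicle, of 9 for CCl4+Rot minus CCl4 and of 1 for CCl4+Rot minus vehicle.

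Counts of calls were 0 in limma and moved with the spread estimate. For CCl4 minus vehicle the robust form called 4 members and 6 of the other cell cycle genes, and with 1 array left out 0 to 12 of each. For CCl4+Rot minus vehicle it called 0 of each, beside 1.17% of all genes. With 1 array left out it called 0 to 2 members and 0 to 3 other genes, 2 and 3 of them without CCl4 replicate 1. The members called were Mki67 (robust limma adjusted p = 0.0453) and Cdkn3 (0.0283) without CCl4 replicate 1, and Ccnb2 (0.0385) without CCl4 replicate 3. The share of all genes called in these left-out fits is not given here, so the counts cannot be set against it. The methods' t-test, unadjusted and at 1.5-fold, called 13 members and 13 other genes for CCl4 minus vehicle (6.3% of all genes), 0 and 1 for CCl4+Rot minus CCl4 (2.18%) and 11 and 15 for CCl4+Rot minus vehicle (8.05%), and 0 in each after Benjamini-Hochberg adjustment.

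Replicate numbers were shared only as 3 between vehicle and CCl4 and as 4 and 5 between vehicle and CCl4+Rot. As a replicate block they had a consensus correlation of -0.033. With so few shared numbers this cannot show whether rats were paired. The block left 0 members called in each comparison. Faint signals limit the mitosis class most, with 5 of its 23 measured genes present on no array and 13 on some.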
